A study of Arabidopsis thaliana with 4 samples.

Results

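The response of wild-type (WT) Arabidopsis thaliana plantlets to a short heat stress was read from 2 of the 4 RNA-seq libraries of the series, WT at 38 °C and WT at 20 °C, chosen by their genotype and temperature labels. Both come from Columbia-0, a standard laboratory accession, with no introduced allele. Whole plantlets aged 21 days, raised on sucrose-containing agar at 20 °C in continuous light, were pooled 6 to 8 at a time. The heated pool spent 15 min in liquid medium warmed to 38 °C, and the pool set against it spent the same time in liquid medium at 20 °C, so both pools went through the transfer. The other 2 libraries, larp1 at 38 °C and larp1 at 20 °C, come from plantlets mutant for larp1, a La-related protein that binds RNA, in the same accession and with the same handling. They are given as a second pair that shares no library with the WT pair.

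Each group is 1 pool and 1 library. Nothing below could be checked against replicates, so p-values are left out and every comparison is one between libraries. Levels are in RPM, a gene's reads scaled to the size of the library, summed over the distinct exon entries that the deposited table lists for a gene. In whole plantlets, fewer cells of a type and less RNA per cell cannot be told apart.

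In plant cells, heat unfolds proteins, which draws chaperones of the HSP70 and HSP90 families off the heat shock factors (HSFs) that they hold inactive. Freed HSFs of class A1 form trimers and bind heat shock elements (HSEs), short inverted repeats of GAA in promoters. Their targets include further HSFs, the chaperones themselves and enzymes that limit oxidative damage. Small heat shock proteins (sHSPs) hold unfolded proteins, HSP101 pulls aggregates apart, and HSP70 with its J-domain partners and HSP90 with its co-chaperones refold them.

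Of the 25819 genes in the table, 19387 reached 50 reads in one or both WT libraries and were compared. The other 6432 were not compared, and 1190 of those had no read in either library. A gene was called when the libraries differed at least 2-fold and the 95% counting interval of the ratio excluded no change. By this rule 826 genes, 4.26% of those compared, were higher at 38 °C, and 4840, 25%, were lower. The log2 fold change of all compared genes had a median of -0.51, a 25th percentile of -1.0 and a 75th percentile of -0.14. The split between higher and lower rests on the scaling. When libraries were scaled by the trimmed mean of M-values (TMM), 1326 genes were called higher and 2196 lower, and with median-of-ratios scaling 1384 were higher and 2100 lower. These scalings add 0.50 and 0.53 to every log2 fold change, so values between about -0.5 and 0 turn positive under both. The lists below are therefore read against the all-gene median of -0.51, and a list median between about -0.5 and 0 turns positive in the same way. List counts given under TMM have another background, 1326 higher and 2196 lower of 19387, and not the shares of 4.26% and 25%.

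The called genes were uneven in size of change. Among nuclear genes, 752 were higher and 4840 lower. At 4-fold or more the counts were 364 higher and 916 lower, at 8-fold 222 and 193, at 16-fold 130 and 33, and at 64-fold 55 and 4. At 128-fold or more 35 genes were higher and none of the compared nuclear genes was lower. The lowered genes thus outnumbered the raised ones at small folds, and the raised ones outnumbered the lowered at large folds. The median log2 fold change was 2.04 among all genes called higher and -1.44 among those called lower.

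**Figure D1:**
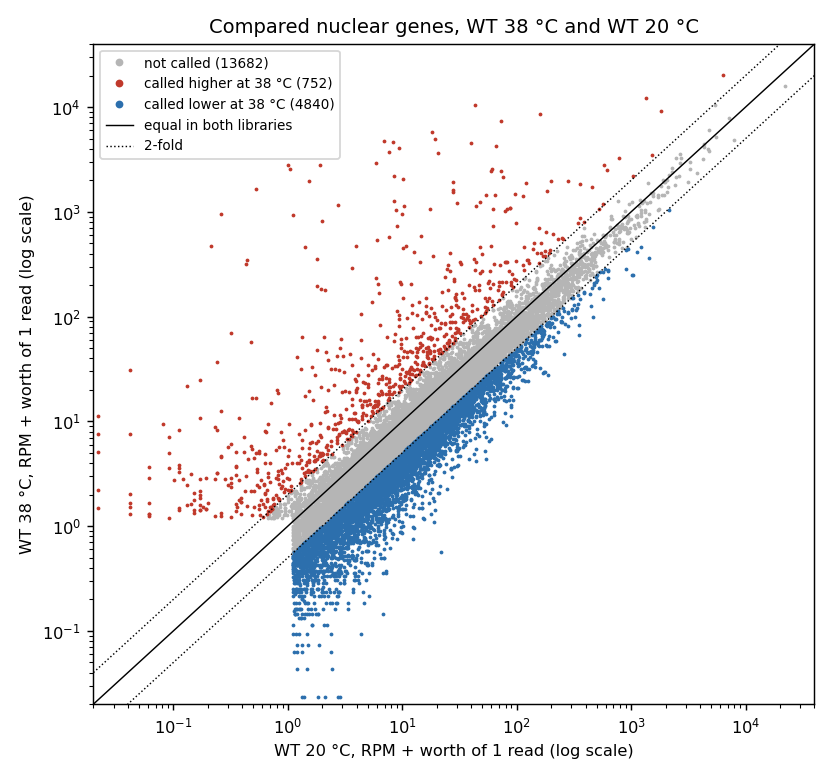
Level at 38 °C (vertical axis) against 20 °C (horizontal axis) in WT for the 19274 nuclear genes compared, in RPM plus the worth of 1 read on log axes, with dotted lines at a 2-fold difference. Of the 752 points called higher 364 lie at 4-fold or more, and of the 4840 called lower 916 do. At 64-fold or more the counts are 55 higher and 4 lower.

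The signal was also held by fewer genes at 38 °C. Ranked by level, 283 genes carried 50% of the nuclear signal at 38 °C, against 720 genes at 20 °C. The 10 most abundant nuclear genes took 12.3% at 38 °C and 8.76% at 20 °C, and the 100 most abundant took 36.7% at 38 °C and 25.9% at 20 °C. The genes called higher held 28.2% of the nuclear signal at 38 °C and 3.77% at 20 °C. The genes called lower held 5.02% at 38 °C and 14.1% at 20 °C, and the genes not called held 66.7% at 38 °C and 81.9% at 20 °C. Since these percentages are parts of 1 whole, a larger share for one set of genes leaves a smaller share for the others. The summed gene values themselves were not equal, at 878712 RPM at 38 °C against 838472 RPM at 20 °C.

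The 10 largest gains in RPM were all of protein quality control genes, and together they took 10.7% of the nuclear signal at 38 °C and 1.83% at 20 °C. UBQ10, a polyubiquitin gene, stood at 20235 RPM at 38 °C against 6407 RPM at 20 °C, a log2 fold change of 1.66. HSP81-2, a cytosolic HSP90, stood at 12201 RPM at 38 °C against 1340.3 RPM at 20 °C. HSP101 stood at 10466 RPM at 38 °C against 43.2 RPM at 20 °C. The other 7 were HSP70, HSC70-1, AT3G09440 and Hsp70b of the HSP70 family, HSP90.1, and the co-chaperone genes BAG6 and Hop3. HSC70-1 shows how a large gain can stay under the 2-fold rule, with 10395 RPM at 38 °C against 5429 RPM at 20 °C (log2 0.94, not called).

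The 10 largest losses took 3.93% of the nuclear signal at 38 °C and 6.25% at 20 °C and included genes of light capture and carbon fixation. CAB1, a chlorophyll a/b-binding protein of photosystem II, stood at 16035 RPM at 38 °C against 22288 RPM at 20 °C (log2 -0.48). The Rubisco small subunit gene RBCS1A stood at 4798 RPM at 38 °C against 8005 RPM at 20 °C (log2 -0.74). Both changes lie near the all-gene median, and neither was called. LOX2, a chloroplast lipoxygenase that makes the precursor of jasmonate, was called lower, at 364 RPM at 38 °C against 1422 RPM at 20 °C (log2 -1.97). GAPA-2, a subunit of the photosynthetic glyceraldehyde-3-phosphate dehydrogenase, was called lower too, at 718 RPM at 38 °C against 1551 RPM at 20 °C. SAMDC, an enzyme of polyamine synthesis, stood at 2358 RPM at 38 °C against 3789 RPM at 20 °C, and ADC2, another, at 1914 RPM at 38 °C against 3128 RPM at 20 °C; neither was called. CAB1 and CAB3 are near-identical copies, so reads may be split between them.

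Among the HSFs, 18 of the 21 members were compared; 7 were called higher and 3 lower, and their median log2 fold change was 0.26. HSFA2, which prolongs acquired heat tolerance, stood at 3677 RPM at 38 °C against 20.5 RPM at 20 °C in WT, a log2 fold change of 7.48. In larp1 it stood at 3548 RPM at 38 °C against 3.51 RPM at 20 °C. The levels at 38 °C were close in both genotypes and the levels at 20 °C were not. HSFA7B stood at 319 RPM at 38 °C against 0.41 RPM at 20 °C (log2 9.53, counting interval 8.95 to 10.33), and HSFA7A at 951 RPM at 38 °C against 9.92 RPM at 20 °C (log2 6.58). All members of class B that were called were higher: HSF4, also named HSFB1, stood at 1097 RPM at 38 °C against 88.2 RPM at 20 °C, HSFB2B at 283 RPM at 38 °C against 24.8 RPM at 20 °C, and HSFB2A at 220.1 RPM at 38 °C against 28.4 RPM at 20 °C. Class B factors lack the activation domain of class A and are known as repressors.

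The class A1 factors, which start the response, had smaller fold changes. HSFA1E was called higher by a narrow margin, at 7.84 RPM at 38 °C against 3.89 RPM at 20 °C (log2 1.01). HSFA1D stood at 11.6 RPM at 38 °C against 11.5 RPM at 20 °C, and HSF1, also named HSFA1A, was called lower, at 2.18 RPM at 38 °C against 6.62 RPM at 20 °C. The 2 other lowered members were HSFC1, at 4.60 RPM at 38 °C against 21.2 RPM at 20 °C, and HSFA8, at 7.16 RPM at 38 °C against 20.9 RPM at 20 °C.

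Of the MBF1 and DREB2 factors, 5 of 9 compared were called higher and 1 lower, and their median log2 fold change was 1.89. MBF1C, a transcriptional coactivator needed for basal heat tolerance, stood at 4550.0 RPM at 38 °C against 39.5 RPM at 20 °C. Its relatives MBF1A, at 35.2 RPM at 38 °C against 35.3 RPM at 20 °C, and MBF1B, at 77.0 RPM at 38 °C against 70.0 RPM at 20 °C, were not called. DREB2A, an activator of dehydration and heat genes, stood at 1444 RPM at 38 °C against 54.2 RPM at 20 °C (log2 4.74). DREB2C, DREB19 and DREB2B were called higher as well, with 4.83, 7.51 and 15.9 RPM at 38 °C against 0.61, 1.22 and 4.28 RPM at 20 °C. In larp1 DREB2C and DREB2B were called higher too, but DREB19 was not, at 17.23 RPM at 38 °C against 13.45 RPM at 20 °C. The list median in larp1 was 0.36.

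**Figure D2:**
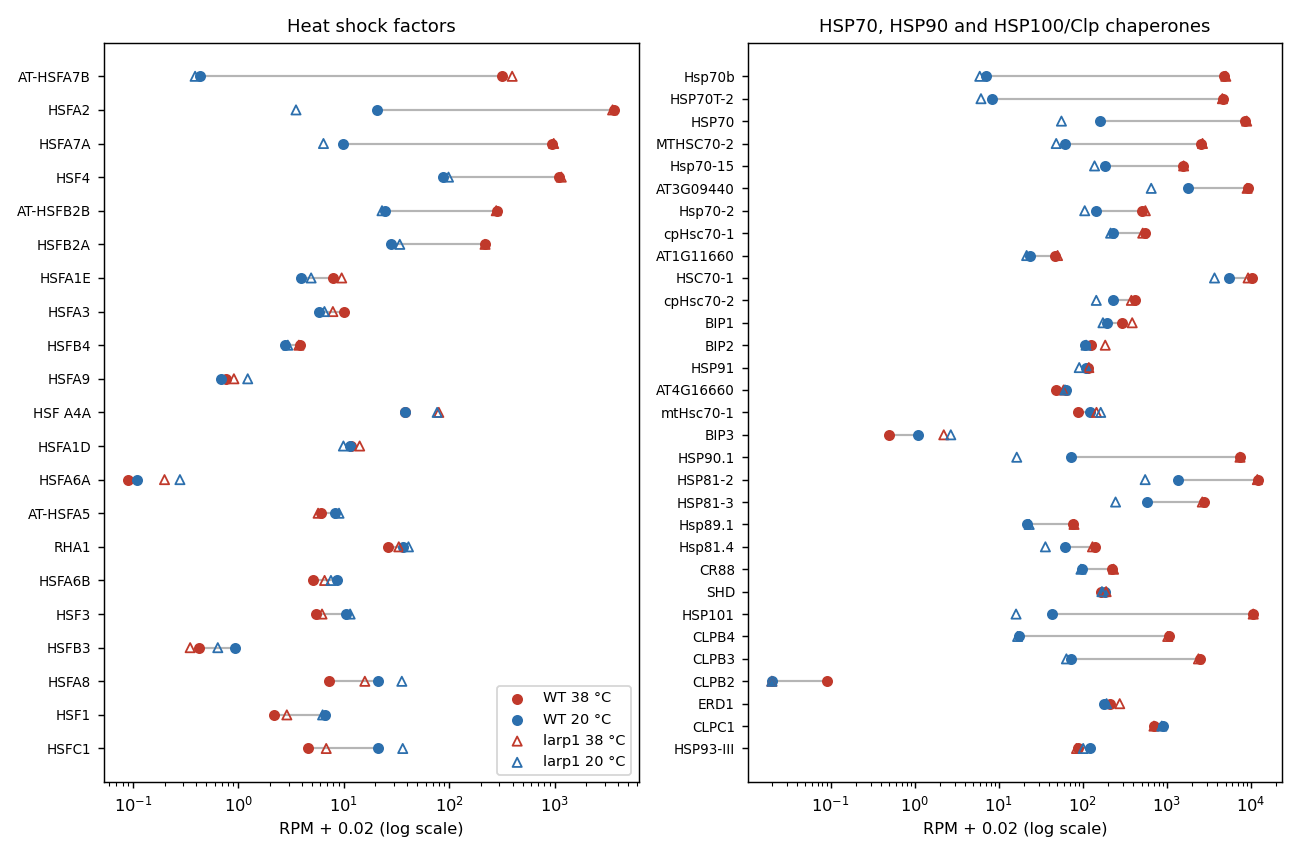
Levels of the heat shock factors (left) and of the HSP70, HSP90 and HSP100 or Clp proteins (right) in the 4 libraries, in RPM plus 0.02 on a log axis; filled circles are WT (red 38 °C, blue 20 °C), open triangles larp1, and the grey line joins the WT values. HSFA7B, HSFA2, Hsp70b and HSP101 are among the longest lines, and the 38 °C values of both genotypes lie close together in each.

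The promoters of these factors and of their targets were searched for the HSE, in the 250 bases before each annotated start. A 2-unit HSE was taken as GAANNTTC or TTCNNGAA, which are the same on both strands, and a 3-unit HSE has a further GAA or TTC unit in turn after 2 bases, so that every 3-unit match also holds a 2-unit match. Of the 25407 promoters searched, 16% held a 2-unit HSE and 0.382%, which is 97 promoters, a 3-unit HSE. The 6 sequences below were chosen among the called genes with a 3-unit match to show where it lies in genes of different roles: 3 transcription factors, a cytosolic sHSP, a J-domain protein and galactinol synthase. They run 5′ to 3′ along the gene's strand, come from RefSeq's TAIR10.1 annotation and end at the base before the annotated start; capitals mark HSE matches.
HSFA7B (chr3:23399036-23399235, + strand): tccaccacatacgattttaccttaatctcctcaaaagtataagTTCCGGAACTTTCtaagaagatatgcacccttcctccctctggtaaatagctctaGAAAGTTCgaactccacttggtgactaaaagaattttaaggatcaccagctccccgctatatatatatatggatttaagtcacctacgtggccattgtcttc
HSFA2 (chr2:11135424-11135623, + strand): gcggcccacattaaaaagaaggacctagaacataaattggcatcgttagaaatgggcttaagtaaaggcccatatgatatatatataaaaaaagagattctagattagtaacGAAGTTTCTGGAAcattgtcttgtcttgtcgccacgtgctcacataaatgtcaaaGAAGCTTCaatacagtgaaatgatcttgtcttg
DREB2A (chr5:1602005-1602204, + strand): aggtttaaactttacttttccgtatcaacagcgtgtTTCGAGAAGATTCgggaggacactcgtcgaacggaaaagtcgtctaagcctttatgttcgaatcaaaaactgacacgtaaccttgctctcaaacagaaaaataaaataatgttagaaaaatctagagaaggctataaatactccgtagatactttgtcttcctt
HSP17.4 (chr3:16984868-16985067, - strand): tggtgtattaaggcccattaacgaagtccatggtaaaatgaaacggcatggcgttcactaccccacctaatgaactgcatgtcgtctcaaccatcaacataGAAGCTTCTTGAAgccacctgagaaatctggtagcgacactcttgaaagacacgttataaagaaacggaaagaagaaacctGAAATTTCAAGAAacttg
AT1G71000 (chr1:26770178-26770377, - strand): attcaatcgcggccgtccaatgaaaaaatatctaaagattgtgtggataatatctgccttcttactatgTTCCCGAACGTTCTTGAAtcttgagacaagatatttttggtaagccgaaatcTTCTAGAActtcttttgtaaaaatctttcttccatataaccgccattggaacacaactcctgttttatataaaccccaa
GolS1 (chr2:19370479-19370678, - strand): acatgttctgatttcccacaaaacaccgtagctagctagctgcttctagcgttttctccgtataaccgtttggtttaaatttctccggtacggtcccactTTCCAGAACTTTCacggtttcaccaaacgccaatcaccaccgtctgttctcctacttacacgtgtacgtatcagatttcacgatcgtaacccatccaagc

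HSFA7B and HSFA2 each hold a 3-unit match and, nearer the start, a separate 2-unit match. HSP17.4 holds a 3-unit match at each of 2 places, and DREB2A and GolS1 hold a single one. AT1G71000 holds a longer run of 4 units and a 2-unit match downstream of it. AT1G71000 is a J-domain protein gene whose level was 349.5 RPM at 38 °C against 0.42 RPM at 20 °C. GolS1, galactinol synthase 1, makes the precursor of raffinose sugars and stood at 1146 RPM at 38 °C against 43.9 RPM at 20 °C. A match describes the letters of these windows and is no evidence of binding.

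Over all promoters of called nuclear genes, a 2-unit HSE was in 187 of 750 genes called higher (24.9%), 14.3% of the genes called lower and 15.9% of the genes not called. A 3-unit HSE was in 18 of the 750 (2.4%), in 9 of the genes called lower (0.187%) and in 53 of those not called (0.388%). The share of 3-unit matches went up with the size of the increase: 0.775% of the 387 genes 2 to 4-fold higher, 2.15% of the 233 genes 4 to 16-fold higher, 5.33% of the 75 genes 16 to 64-fold higher and 10.9% of the 55 genes 64-fold higher or more. These shares rest on 3, 5, 4 and 6 genes. The share of 2-unit matches had no such order, at 26.4%, 24%, 13.3% and 34.5% in the same classes. Most genes with the largest increases therefore had no 3-unit match in this window. In the 130 genes at least 16-fold higher, 2-unit matches began 51 to 100 bases before the start in 12 promoters (9.23%). They began in the nearest 50 bases in 11 (8.46%) and in the farthest 50 bases in 1 (0.769%). Over all 750 genes called higher the farthest 50 bases had 4.93% and the bin 51 to 100 bases before the start 7.2%. In the genes called lower the share stayed between 2.7% and 3.37% in every 50-base bin.

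**Figure D3:**
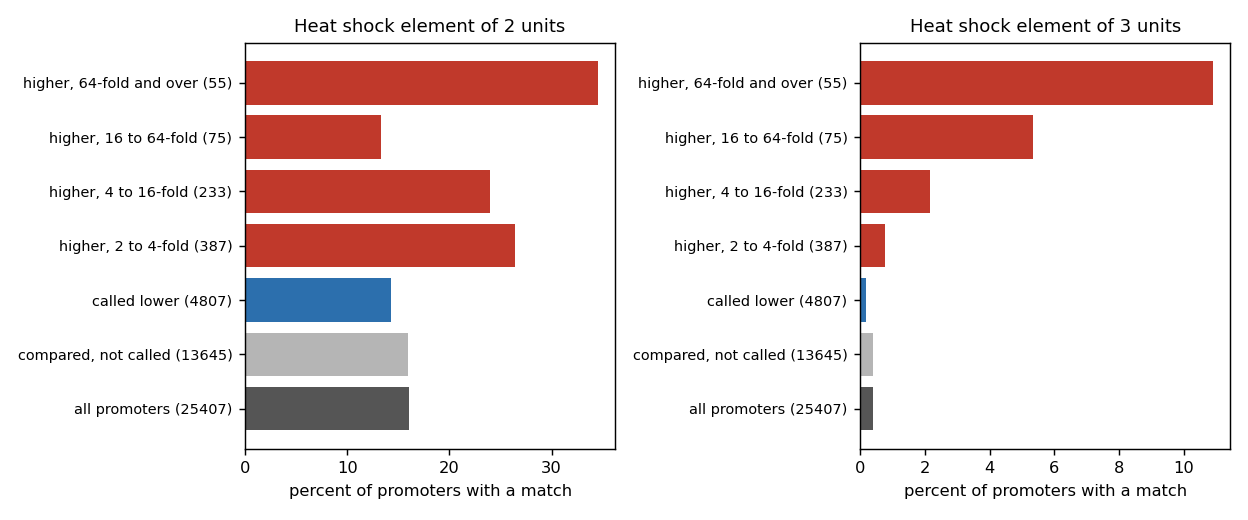
Share of promoters (percent, 250 bases before the annotated start) with a heat shock element of 2 units and of 3 units, for genes grouped by their WT fold change at 38 °C over 20 °C. The 3-unit share is highest, 10.9%, in the genes at least 64-fold higher.

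The 18 raised genes with a 3-unit HSE were called higher in larp1 as well. Beside sHSPs, HSFs, DREB2A, GolS1 and the J-domain gene they include other genes, named here after their values were seen. BI1, Bax inhibitor 1, an endoplasmic reticulum (ER) protein that restrains cell death, stood at 467 RPM at 38 °C against 59.0 RPM at 20 °C. FTSH4, a protease of the mitochondrial inner membrane, is transcribed away from HSFA2 and shares its promoter region, so the same matches count for both; it stood at 335 RPM at 38 °C against 81.8 RPM at 20 °C. AT2G27580, annotated as a zinc-finger protein of the A20/AN1 kind, stood at 335 RPM at 38 °C against 32.0 RPM at 20 °C. PRR7, a repressor within the circadian clock, stood at 118 RPM at 38 °C against 45.0 RPM at 20 °C. Other promoter words were counted in the same sets. The G-box CACGTG was in 11.1% of promoters of genes called higher, 6.18% of those lower and 7.53% of those not called. The dehydration element ACCGAC was in 6.67%, 4.87% and 5.26% of the same sets. The word CGCGT, bound by calmodulin-binding activators, was in 9.07%, 6.66% and 7.86%. Less frequent in genes called higher were the telo-box AAACCCTA, in 2.27%, 3.45% and 3.51%, and the histone octamer word CGCGGATC, in 0%, 0.187% and 0.154%.

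Small heat shock proteins held most of the top ranks. Of 18 members compared, 16 were called higher and 1 lower. The median log2 fold change was 8.93, and the summed level was 31511 RPM at 38 °C against 114 RPM at 20 °C. Members with large folds serve different compartments. ATHSP22.0 of the ER stood at 959.6 RPM at 38 °C against 0.24 RPM at 20 °C. HSP23.6-MITO of the mitochondrion stood at 1666 RPM at 38 °C against 0.50 RPM at 20 °C. HSP21 of the chloroplast stood at 471 RPM at 38 °C against 0.19 RPM at 20 °C. AT1G53540 (log2 11.43) and the cytosolic HSP17.4 (log2 11.26) had larger folds than HSP21 (log2 11.12). AT4G21870, annotated to the same family, went the other way, at 12.0 RPM at 38 °C against 26.4 RPM at 20 °C, and AT5G54660 stood at 5.28 RPM at 38 °C against 5.47 RPM at 20 °C. HSP17.6II lies 846 bases from HSP17.6A, and without strand a share of its reads could be of that neighbour.

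Of the HSP70 family, 8 of 17 compared genes were called higher and 1 lower (12 and 0 under TMM), with a summed level of 43853 RPM at 38 °C against 8874 RPM at 20 °C. Hsp70b stood at 4782 RPM at 38 °C against 6.95 RPM at 20 °C, and HSP70T-2 at 4608 RPM at 38 °C against 8.32 RPM at 20 °C. The ER member BIP1 stood at 293 RPM at 38 °C against 195.0 RPM at 20 °C and was not called. BIP3, the copy known to respond to unfolded ER proteins, was called lower, at 0.47 RPM at 38 °C against 1.09 RPM at 20 °C. That call rests on 20 reads at 38 °C and 50 at 20 °C, which is the read minimum. In larp1 BIP3 was not called, at 2.2 RPM at 38 °C against 2.67 RPM at 20 °C. Of the HSP90 family, 6 of 7 were called higher, with a sum of 22970.3 RPM at 38 °C against 2353 RPM at 20 °C. HSP90.1 had the largest fold of them, at 7393 RPM at 38 °C against 72.9 RPM at 20 °C in WT; the larp1 values were 7425 RPM at 38 °C against 16.4 RPM at 20 °C. Of the HSP100 and Clp proteins 3 of 6 were called higher: HSP101, the chloroplast CLPB3, at 2456 RPM at 38 °C against 73.3 RPM at 20 °C, and the mitochondrial CLPB4, at 1059.8 RPM at 38 °C against 17.3 RPM at 20 °C. CLPC1, which feeds a chloroplast protease, stood at 706 RPM at 38 °C against 906 RPM at 20 °C and was not called.

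The co-chaperone list held 20 compared genes, 9 called higher and 1 lower. BAG6, an HSP70 regulator of the BAG family, stood at 5835 RPM at 38 °C against 18.3 RPM at 20 °C, while BAG1 was called lower, at 24.0 RPM at 38 °C against 67.0 RPM at 20 °C. Hop3, which links HSP70 to HSP90, stood at 5004 RPM at 38 °C against 19.4 RPM at 20 °C. ROF1, a prolyl isomerase that binds HSP90, stood at 1072 RPM at 38 °C against 62.1 RPM at 20 °C, and its relative AT5G48570 at 2067 RPM at 38 °C against 10.2 RPM at 20 °C. Fes1A, which protects cytosolic HSP70 from degradation, stood at 1549 RPM at 38 °C against 27.7 RPM at 20 °C. The raised genes named here had log2 fold changes between 4.11 and 8.32.

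The wide J-domain family, whose members stimulate HSP70, did not change as a block. Of 113 compared genes 13 were called higher (11.5%, against 4.26% of all genes) and 17 lower (15%, against 25%), and the median log2 fold change was -0.43, which is 0.07 under TMM. Under TMM 17 were higher and 6 lower. ERDJ3A stood at 474 RPM at 38 °C against 3.95 RPM at 20 °C, AT2G20560 at 1914 RPM at 38 °C against 27.7 RPM at 20 °C, and J3 at 1832 RPM at 38 °C against 355 RPM at 20 °C. Chaperonins, the barrel-shaped folding machines, had 4 of 22 compared called higher and 1 lower. The mitochondrial HSP60 stood at 149 RPM at 38 °C against 28.8 RPM at 20 °C, and the chloroplast Cpn60beta2 at 466 RPM at 38 °C against 47.5 RPM at 20 °C. CPN10 and CPN60A were the other 2 called higher. Members of the same organelles went other ways: the chloroplast Cpn60beta4 was called lower, at 3.33 RPM at 38 °C against 6.93 RPM at 20 °C (log2 -1.05), and CPN60B (log2 -0.60) and the mitochondrial HSP60-2 (log2 -0.48) were not called. The cytosolic CCT subunits had log2 fold changes between -0.86 and -0.19.

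Genes for ER folding and the unfolded protein response were mostly not called. Of 24, 3 were called higher (12.5%, against 4.26% of all genes) and 2 lower (8.33%, against 25%). The median of -0.18 became 0.32 under TMM. The 3 called higher were ERDJ3A, a J-domain protein of the ER given above, TIN1 and BZIP28. TIN1, induced by the ER stressor tunicamycin, stood at 184 RPM at 38 °C against 1.91 RPM at 20 °C. BZIP28, a sensor of ER stress, stood at 151 RPM at 38 °C against 57.5 RPM at 20 °C, and BZIP60, the other sensor branch's factor, at 78.4 RPM at 38 °C against 94.5 RPM at 20 °C, not called. Of 5 polyubiquitin genes 2 were called higher, UBQ10 and UBQ3. Proteasome subunits, which degrade ubiquitin-tagged proteins, stood apart from these: 1 of 37 was called higher and none lower, and their median was -0.24 (0.27 under TMM).

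**Figure D4:**
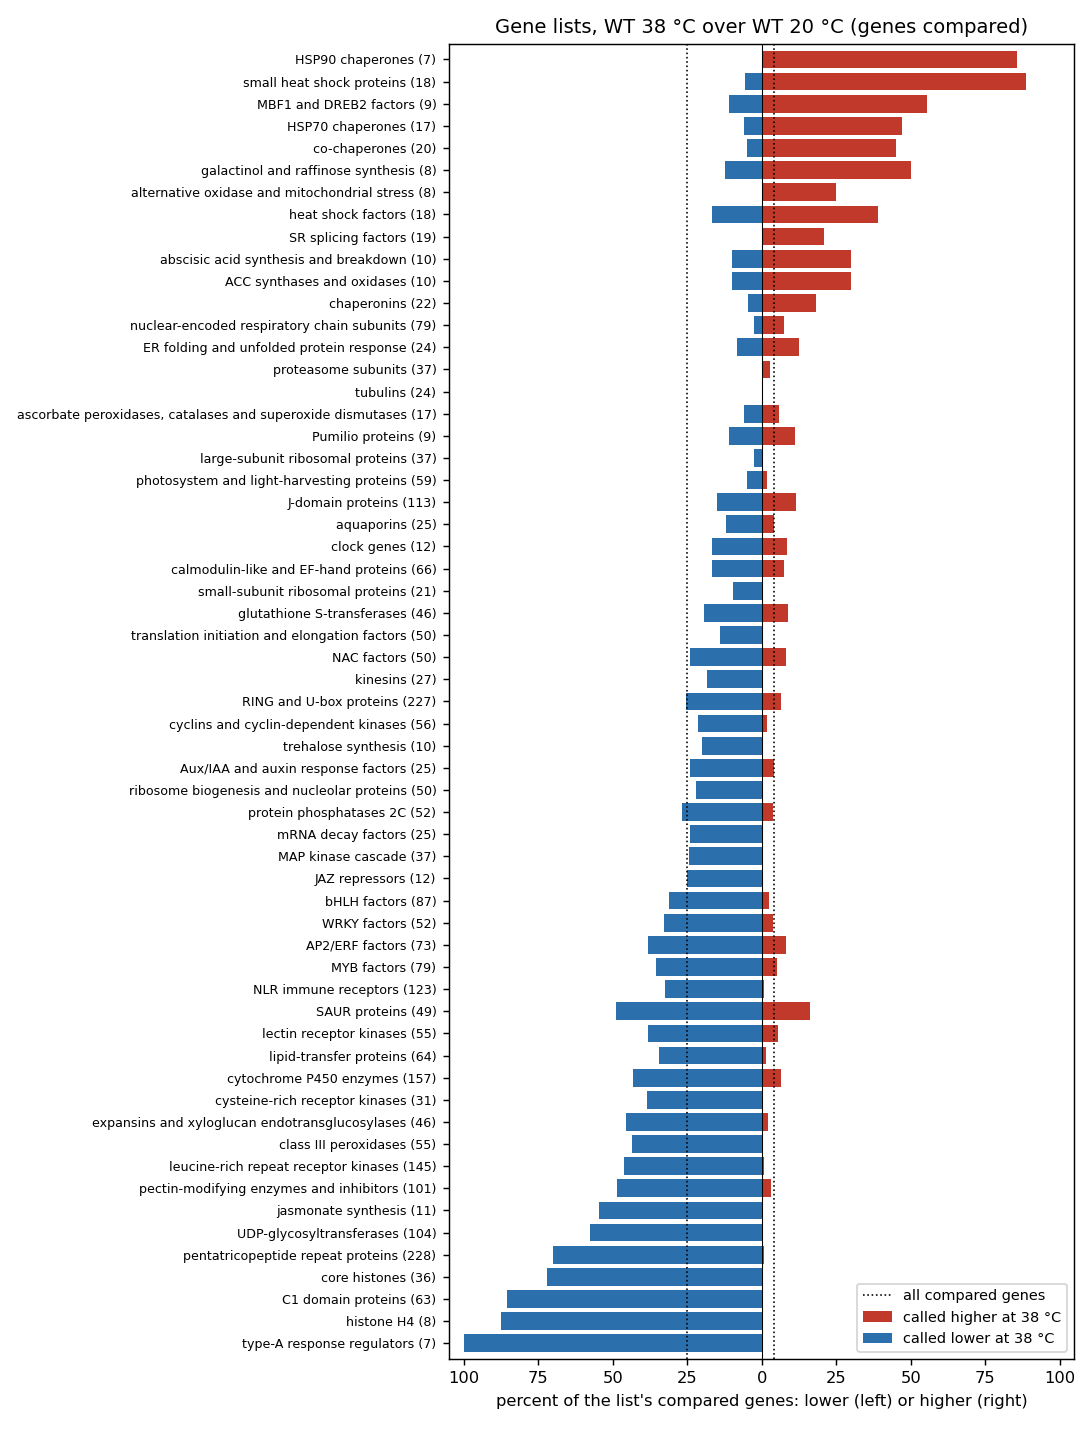
Percent of the compared genes of each list called higher (right, red) and lower (left, blue) at 38 °C against 20 °C in WT; dotted lines mark the shares over all compared genes, 4.26% higher and 25% lower. Chaperone lists reach far right, and C1 domain, histone, pentatricopeptide repeat and type-A response regulator lists reach far left.

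Of the enzymes that remove reactive oxygen, APX2, a cytosolic ascorbate peroxidase, was the only one of 17 called higher (5.88%, against 4.26% of all genes). It stood at 31.0 RPM at 38 °C against 0.02 RPM at 20 °C, where it had 1 read, so the log2 ratio has a counting interval of 8.00 to 15.79. CSD2, a chloroplast superoxide dismutase, was the only one called lower (5.88%, against 25% of all genes). It stood at 0.92 RPM at 38 °C against 3.91 RPM at 20 °C, and CAT3 at 1520.5 RPM at 38 °C against 1494 RPM at 20 °C. Glutathione S-transferases, which detoxify reactive compounds, had 4 of 46 called higher (8.7%, against 4.26%) and 9 lower (19.6%, against 25%). Their summed level was 9223 RPM at 38 °C against 5298 RPM at 20 °C. GSTF8, at 3236 RPM at 38 °C against 789 RPM at 20 °C, and GSTU5, at 2483 RPM at 38 °C against 609.9 RPM at 20 °C, were 2 of the 4 called higher. Of 8 genes of galactinol and raffinose synthesis, whose sugars protect membranes, 4 were called higher and 1 lower. GolS2 stood at 86.3 RPM at 38 °C against 21.8 RPM at 20 °C, whereas GolS3, known from cold stress, stood at 0.47 RPM at 38 °C against 6.97 RPM at 20 °C.

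Families that act on RNA differed from each other. SR splicing factors, which choose splice sites, had 4 of 19 called higher and none lower, with SR45a at 1455 RPM at 38 °C against 65.1 RPM at 20 °C and SR30 at 167 RPM at 38 °C against 33.0 RPM at 20 °C. Of the mRNA decay factors none of 25 was called higher and 6 were lower (24%, near the background), among them CAF1a, a deadenylase, at 97.9 RPM at 38 °C against 300.2 RPM at 20 °C, and its copy CAF1b, at 16.1 RPM at 38 °C against 57.4 RPM at 20 °C. Of 9 Pumilio proteins, which bind 3′ ends of mRNAs, PUM2 was called lower, at 15.7 RPM at 38 °C against 37.2 RPM at 20 °C. PUM21 (AT5G09610) was called higher, at 2.18 RPM at 38 °C and 0 at 20 °C, which is at least 33.5-fold higher against a floor of 3 reads. Pentatricopeptide repeat proteins, which edit and process organelle RNA, had 2 of 228 called higher and 160 lower (70.2%), with a median of -1.42. Under TMM 3 were higher and 106 lower. CRR4, an editing factor of the chloroplast, was one of those higher, at 8.03 RPM at 38 °C against 0.61 RPM at 20 °C.

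Ribosomal and translation genes had medians near that of all genes, and smaller shares of them were called lower than the 25% of all genes. None of 37 large-subunit and 21 small-subunit ribosomal protein genes was called higher, and 1 (2.7%) and 2 (9.52%) were lower. Of 50 translation factors 7 were lower (14%), and of 50 ribosome biogenesis genes 11 were lower (22%, near the background) with a median of -0.73. None of either list was higher, against 4.26% of all genes.

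Growth genes were lower in several lists, at different depths. Of 36 core histone genes 26 were called lower and none higher, with a median of -1.68 (19 under TMM). The variants, grouped after their values were seen, were unequal. These lists also differ in gene structure, described below: the genes of H3.1 all have 1 exon entry in the table, as do 75% of the H4 genes, and none of the H3.3 and H2A.Z genes does. Over all nuclear genes 50.7% of those with 1 entry were lower, so structure and variant cannot be told apart in these counts. All 5 genes of H3.1, the form placed behind replication forks, were lower, with a median of -2.51, among them AT5G10390 at 2.07 RPM at 38 °C against 17.5 RPM at 20 °C and AT5G65360 at 12.2 RPM at 38 °C against 63.4 RPM at 20 °C. Of 8 H4 genes 7 were lower, with a median of -2.56. Of the 3 genes of H3.3, the form placed outside replication, 1 was lower, and the most abundant, AT4G40040, stood at 132 RPM at 38 °C against 207 RPM at 20 °C. None of the 3 genes of H2A.Z, a variant at the start of genes, was called: HTA9 stood at 67.9 RPM at 38 °C against 71.9 RPM at 20 °C, HTA11 at 13.9 RPM at 38 °C against 15.1 RPM at 20 °C and HTA8 at 5.66 RPM at 38 °C against 5.35 RPM at 20 °C. Many histone genes are near-identical copies, so reads may be split among them.

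Cell-cycle and cytoskeleton genes were lower less widely. Of 56 cyclins and cyclin-dependent kinases 12 were called lower (21.4%, near the background) and 1 higher, and CYCA1;1, an S-phase and mitotic cyclin, stood at 0.44 RPM at 38 °C against 3.38 RPM at 20 °C. Of 24 tubulin genes none was called in either direction. Of 46 expansins and xyloglucan endotransglucosylases, which loosen and remodel the cell wall, 21 were lower (45.7%) and 1 higher (12 and 1 under TMM). The one higher was TCH4, a touch-induced enzyme, at 2180 RPM at 38 °C against 1042 RPM at 20 °C; EXPA4 stood at 5.81 RPM at 38 °C against 23.5 RPM at 20 °C. Of 101 pectin-modifying enzymes and inhibitors 49 were lower (48.5%) and 3 higher (32 and 3 under TMM).

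Among transcription factor families, the share called lower ranged from 24% to 38.4%, against 25% of all genes, and the share called higher from 2.3% to 8.22%, against 4.26%. NAC factors, with 4 of 50 called higher and 12 lower and a median of -0.52, were near the background in their lower share, with ATAF1 at 259 RPM at 38 °C against 48.1 RPM at 20 °C and ATAF2 at 347 RPM at 38 °C against 123 RPM at 20 °C. AP2/ERF factors had 6 of 73 higher and 28 lower, 11 and 13 under TMM, where their median of -0.33 became 0.17. MYB factors had 4 of 79 higher and 28 lower. MYB24, a regulator of stamen development, had no read at 38 °C and 2.85 RPM at 20 °C, at least 40.5-fold lower. MYB34, an activator of indole glucosinolate synthesis, stood at 13.7 RPM at 38 °C against 88.5 RPM at 20 °C. WRKY factors had 2 of 52 higher and 17 lower, and WRKY54 stood at 1.46 RPM at 38 °C against 15.0 RPM at 20 °C. PRE5, a small bHLH protein that promotes cell elongation, was 1 of 2 bHLH genes of 87 called higher, at 2.86 RPM at 38 °C against 0.17 RPM at 20 °C.

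C1 domain proteins, a large plant family rich in cysteine and histidine, had the highest share lower among the lists with at least 50 compared genes. Of 136 listed genes 63 were compared, and 54 of these (85.7%) were lower and none higher. Their median was -1.68, and 39 were lower under TMM. A gene near the read minimum could pass it through its 20 °C library alone, which raises such shares. Examples are AT2G02630, at 0.33 RPM at 38 °C against 7.19 RPM at 20 °C, and the most abundant member AT4G02540, at 55.7 RPM at 38 °C against 129 RPM at 20 °C. Against the 25% of all genes called lower, receptor families gave shares of different size. Their counts under TMM are set against the all-gene counts under TMM, 2196 lower and 1326 higher of 19387. Leucine-rich repeat receptor kinases had 67 of 145 lower (46.2%) and 1 higher, with 30 lower and 2 higher under TMM. Cysteine-rich receptor kinases had 12 of 31 lower (38.7%) and none higher, with 4 lower and 1 higher under TMM. NLR immune receptors had 40 of 123 lower (32.5%) and 1 higher, with 21 lower and 4 higher under TMM, and their median of -0.61 lay near that of all genes. The NLR gene that was higher, AT1G66090, stood at 1014 RPM at 38 °C against 78.6 RPM at 20 °C. Of 227 RING and U-box proteins, which attach ubiquitin, 15 were higher (6.61%) and 58 lower (25.6%), both near the background. Some members of the family still had large folds: AT1G26800 stood at 579.8 RPM at 38 °C against 7.60 RPM at 20 °C, AT5G47610 at 179.9 RPM at 38 °C against 2.08 RPM at 20 °C, and AT1G14200 at 475 RPM at 38 °C against 10.7 RPM at 20 °C. The EF-hand calcium-binding gene AT1G21550 stood at 291 RPM at 38 °C against 3.60 RPM at 20 °C, and TCH3, a calmodulin-like touch gene, at 3487 RPM at 38 °C against 1518 RPM at 20 °C.

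Hormone genes divided by hormone. Cytokinin is followed by type-A response regulators, which it induces and which dampen its signal. All 7 of the 10 members that were compared were called lower (5 under TMM), with a median of -2.49. ARR7 stood at 2.16 RPM at 38 °C against 15.6 RPM at 20 °C, ARR9 at 1.89 RPM at 38 °C against 10.7 RPM at 20 °C, and ARR4 at 7.66 RPM at 38 °C against 29.3 RPM at 20 °C. The 3 members with too few reads to compare, ARR3, ARR15 and RR17, stood at 0.25, 0.21 and 0 RPM at 38 °C and at 0.91, 0.67 and 0.09 RPM at 20 °C. In larp1 all 8 members compared were lower. IPT5, an enzyme that starts cytokinin synthesis, stood at 0.07 RPM at 38 °C against 2.34 RPM at 20 °C in WT; the larp1 values were 0.20 RPM at 38 °C against 2.53 RPM at 20 °C.

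Jasmonate genes were lower or not called. Of 11 synthesis genes, 6 were called lower (54.5%; 2 under TMM) and none higher, with a median of -1.01. LOX2 is given above; JAR1, which joins jasmonate to isoleucine, stood at 62.6 RPM at 38 °C against 166.7 RPM at 20 °C, and AOC1, an allene oxide cyclase, at 110.2 RPM at 38 °C against 279 RPM at 20 °C. LOX2 was not called in larp1, where it stood at 698 RPM at 38 °C against 1012 RPM at 20 °C; the difference between genotypes was not tested. DAD1, a lipase upstream of them, had 1 read at 38 °C (0.02 RPM) and 2.41 RPM at 20 °C. Of 12 JAZ repressors 3 were called lower, none of them under TMM. Their share of 25% equals that of all compared genes. JAZ1 stood at 1497 RPM at 38 °C against 1557 RPM at 20 °C.

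Genes of the ethylene, abscisic acid and gibberellin pathways went both ways. Of 10 genes for the last enzymes of ethylene synthesis, 3 ACC synthases were higher and 1, ACS2, was lower, at 0.89 RPM at 38 °C against 2.2 RPM at 20 °C. ACS7 stood at 22.7 RPM at 38 °C against 4.99 RPM at 20 °C, ACS11 at 46.2 RPM at 38 °C against 16.4 RPM at 20 °C and ACS8 at 15.1 RPM at 38 °C against 6.12 RPM at 20 °C. NCED3, which limits abscisic acid synthesis under drought, stood at 46.4 RPM at 38 °C against 10.3 RPM at 20 °C. AAO3, which carries out the last step of that synthesis, was lower, at 9.84 RPM at 38 °C against 22.5 RPM at 20 °C. CYP707A4, which breaks the hormone down, was higher as well, at 2.81 RPM at 38 °C against 0.21 RPM at 20 °C. PYL6, an abscisic acid receptor, was lower, at 0.21 RPM at 38 °C against 4.54 RPM at 20 °C. GA3OX1, which makes active gibberellin, stood at 9.22 RPM at 38 °C against 1.56 RPM at 20 °C.

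Auxin-responsive genes went both ways. IAA29, an Aux/IAA repressor, stood at 17.4 RPM at 38 °C against 1.39 RPM at 20 °C. Of the 25 Aux/IAA and auxin response factor genes compared, 6 were lower (24%) and 1 higher (4%), both near the background. Of 49 SAUR genes, small auxin-induced proteins tied to cell expansion, 8 were higher and 24 lower (9 and 21 under TMM). AT4G12410 stood at 43.6 RPM at 38 °C against 3.45 RPM at 20 °C, and AT2G21210 at 0.54 RPM at 38 °C against 21.7 RPM at 20 °C. SAUR genes stand in clusters of near-identical copies, so values of single members are uncertain.

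Enzyme families of secondary metabolism were lower more often than the background. UDP-glycosyltransferases, which attach sugars to small molecules, had 60 of 104 called lower (57.7%) and none higher, with a median of -1.25 (37 lower and 5 higher under TMM). Cytochrome P450 enzymes had 68 of 157 lower (43.3%) and 10 higher (27 and 15 under TMM), with CYP81D11, induced by foreign compounds, at 100.0 RPM at 38 °C against 19.4 RPM at 20 °C. By contrast, photosystem and light-harvesting genes had 3 of 59 lower and 1 higher, with a median of -0.24. The 1 higher was ELIP1, a pigment-binding protein induced by strong light, at 49.6 RPM at 38 °C against 2.86 RPM at 20 °C. Of 25 aquaporins 1 was higher, RD28, a plasma membrane water channel, at 314 RPM at 38 °C against 71.9 RPM at 20 °C, and 3 were lower.

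Organelle transcripts were read apart from nuclear ones. Of 143 mitochondrion-encoded genes 67 had enough reads to be compared, all 67 were called higher, and the mitochondrial genes together stood at 504 RPM at 38 °C against 40.4 RPM at 20 °C. Chloroplast-encoded genes together stood at 300.3 RPM at 38 °C against 236 RPM at 20 °C, with 7 of the 46 compared higher and none lower. A gene near the read minimum could pass it through its higher library alone, which raises such counts. Among 79 nuclear-listed respiratory chain genes 6 were higher, all with names starting AT2G07 and all at 1.41 to 9.34 RPM at 38 °C and 0.13 to 1.00 RPM at 20 °C. That stretch of chromosome 2 holds copies of mitochondrial genes, so reads may be of either. Genes of this stretch count as nuclear in the nuclear totals, the promoter counts and the gene structure counts of this report.

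Organ markers were checked because root and shoot can differ in a pooled sample. Of 4 root markers compared, SCR, SHR and SHV2 were called lower, at 6.58, 3.52 and 1.17 RPM at 38 °C and 29.3, 10.8 and 4.39 RPM at 20 °C, and WOX5 was higher, at 2.48 RPM at 38 °C against 0.60 RPM at 20 °C. Their sum was 13.8 RPM at 38 °C against 45.1 RPM at 20 °C. The 3 leaf markers summed to 10177 RPM at 38 °C against 14221 RPM at 20 °C, and none was called. Flower markers summed to 0.28 RPM at 38 °C against 0.25 RPM at 20 °C, and seed markers to 0.07 RPM at 38 °C against 0.22 RPM at 20 °C, with none compared. The part of root content in the lists called lower was not tested.

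The 25 largest increases and decreases also held genes outside the chaperone families. AT1G03070, of the Bax inhibitor-1 family, stood at 462 RPM at 38 °C against 1.40 RPM at 20 °C (log2 8.34). AT1G06030, annotated as a pfkB-type sugar kinase, stood at 11.1 RPM at 38 °C and 0 at 20 °C, at least 171-fold higher, and AT5G53680, with an RNA recognition motif, stood at 7.60 RPM at 38 °C and 0 at 20 °C, at least 117-fold higher. Among the lowest, OFP16, of the OVATE family of transcriptional repressors, stood at 0.12 RPM at 38 °C against 6.75 RPM at 20 °C, and NIMIN-2, a partner of the immune coactivator NPR1, at 0.73 RPM at 38 °C against 12.4 RPM at 20 °C. MC8, a metacaspase, was lower in WT, at 0.21 RPM at 38 °C against 3.71 RPM at 20 °C, but stood at 8.83 RPM at 38 °C against 8.06 RPM at 20 °C in larp1. Low levels bound these folds: of the genes called lower, 1338 had fewer than 50 reads at 38 °C, and of those called higher, 248 had fewer than 50 reads at 20 °C.

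Calls differed with gene structure, read as the number of distinct exon entries of a gene. Entries of a gene with equal values in all 4 libraries count as 1, so this number depends in part on the values. Of 3085 nuclear genes with 1 entry 50.7% were called lower; the share was 31.7% of 4173 genes with 2 to 3 entries, 20.7% of 6072 with 4 to 7 and 11.7% of 5944 with 8 or more. Under TMM the order was the same, at 32.2%, 14.9%, 7.08% and 2.52%. Genes called higher had the same order in smaller steps, at 7.1%, 4.51%, 3.26% and 2.47%. The larp1 pair had 43.4%, 25.2%, 14.9% and 6.43% lower in these classes. The order also stood among genes of like level. With genes cut into 5 equal classes by their 20 °C level, single-entry genes were lower more often than genes with 8 or more entries in each class, at 52.8% against 17.5% in the lowest and 35.7% against 8.52% in the highest. Of the lists above, pentatricopeptide repeat genes (71.5%), C1 domain genes (74.6%), AP2/ERF factors (74%), SAUR genes (98%) and core histones (52.8%) are mostly of 1 entry, and the part of gene structure in their counts was not tested.

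**Figure D5:**
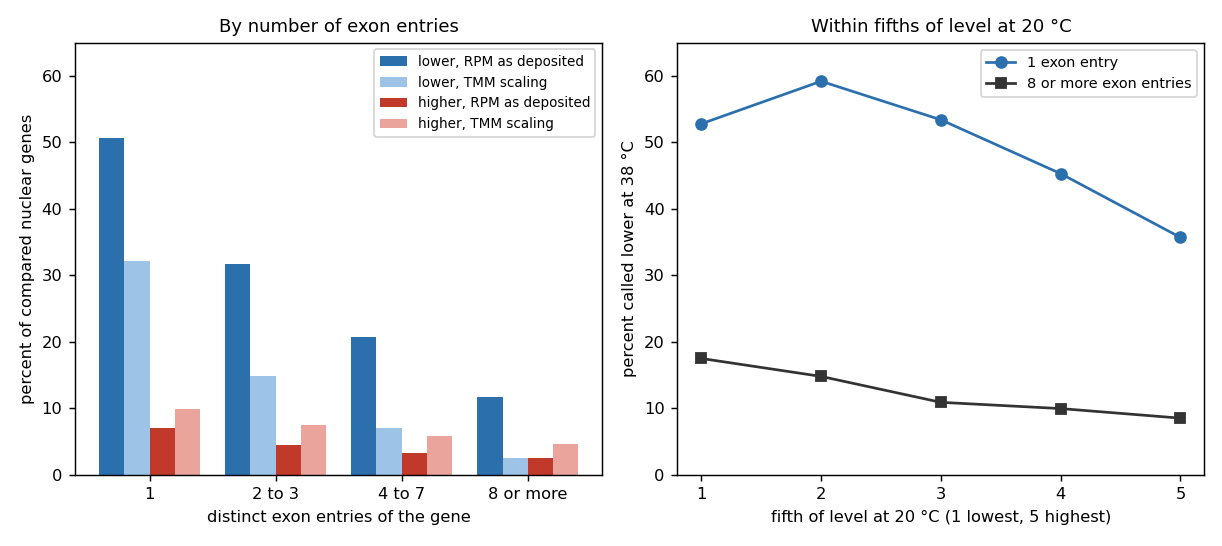
Left, percent of nuclear genes called lower and higher at 38 °C in WT by number of exon entries, with RPM as deposited and with TMM scaling; right, percent called lower within 5 classes of 20 °C level for genes with 1 entry and with 8 or more. Genes of 1 entry are lower more often in each class.

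Entries of 1 gene mostly moved together. Among genes with several readable entries, every entry had the same sign in 406 of 422 genes called higher (96.2%) and 2197 of 2201 called lower (99.8%). Some genes had entries that differed. In MBF1C, 3 entries had log2 fold changes of 7.06 to 7.42, while the remaining entry stood at 4.06 RPM at 38 °C against 7.23 RPM at 20 °C (log2 -0.83, and -0.81 in larp1). The 2 entries of HSFA7A stood at 366 and 585 RPM at 38 °C and at 0.35 and 9.57 RPM at 20 °C. The splicing factor SR30, whose own mRNA is alternatively spliced, had 10 entries that were all higher, with log2 fold changes from 1.02 to 5.92. One entry of AT3G46220, the gene that overlaps HSP17.4, stood at 133 RPM at 38 °C against 3.0 RPM at 20 °C, while its 3 other called entries were lower. The use of strand is not given, so overlapping genes cannot be told apart by their reads. Within 1000 bases of 111 of 750 raised genes (14.8%) and of 627 of 4807 lowered genes (13%) lay a gene called the same way with a larger change.

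The larp1 pair followed the WT pair most closely at large folds. Over all its 20475 compared genes, 4.19% were called higher and 19.8% lower. Of the WT genes 8-fold or more higher, 275 of 275 were called higher in larp1 too. The counts of this comparison include organelle-encoded genes, and 222 of the 275 are nuclear. The same call was made in larp1 for 148 of 155 genes (95.5%) 4 to 8-fold higher and 277 of 395 (70.1%) 2 to 4-fold higher. Only genes compared in both pairs are counted. For lower genes the numbers were 179 of 185 (96.8%), 674 of 719 (93.7%) and 2269 of 3914 (58%), with 3 genes of the last class called higher in larp1. Of the 25 genes with the largest increase in WT, 25 were higher in larp1, with a median log2 fold change there of 9.58, and of the 25 with the largest decrease, 20 of 22 compared were lower.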

How the data were processed

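Per the labels' protocols, RNA from 4 pools of whole plantlets was depleted of ribosomal RNA with a duplex-specific nuclease, fragmented with zinc and read from 1 end over 100 bp. Abundant transcripts other than ribosomal RNA can be cut by this nuclease too, so their values are less certain. Per the submitters' processing notes, BWA 0.5.9 and build TAIR10 were used. Which tool counted reads, and whether by strand, is not given in the sources used here.

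For 181379 exon entries of 25819 genes the deposited table gives a signal, which per the file headers is RPM, rounded to 2 decimals. A gene's value was the sum of its distinct entries, which number 132172 over all genes. The other 49207 entries had the same values in all 4 libraries as another entry of their gene and were left out. Entries carry no coordinates, so different exons of equal values could not be told from repeats of 1 exon. Where entries overlap, a read may be counted in each, which makes intervals too narrow. Values are whole multiples of the worth of 1 read, within rounding, for at least 99.9969% of values in each library. This gave a depth of 42608500 reads for WT at 38 °C, 46065300 for WT at 20 °C, 44931500 for larp1 at 38 °C and 74419700 for larp1 at 20 °C. The authors' deposited gene lists give a ratio (fold) of 38 °C over 20 °C per the file headers. Of the 807 genes in their list of raised WT genes 778 were called higher here, and of the 4745 in their list of lowered genes 4468 were called lower.

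The planned design assumed counts per gene; the files hold rounded RPM in 1 library a group, so no count model was fitted. For log2 fold changes, the worth of 1 read of the library was added to each RPM value. Intervals are 95% exact conditional binomial (Clopper-Pearson) intervals and, like the floor of 3 reads for a gene at 0 (0.0704 RPM in WT at 38 °C and 0.0651 in WT at 20 °C), cover counting error only. Genes and the 74 lists were matched to RefSeq's annotation of TAIR10.1 (25408 genes matched), whose promoters were searched. The members and lists were chosen with earlier results of these data known, and the histone variant lists after their values were seen. Named genes are the 25 highest and 25 lowest called nuclear genes with at least 100 reads, the 10 largest gains and losses in RPM, and up to 3 genes of largest change plus the most abundant of each list; others are named from the lists after their values were seen. For 1423 genes an entry carries the name of another locus. Alternatives were TMM, median-of-ratios and other totals, other read minimums, a pseudocount of 0.5 RPM, a 3-fold rule and all entries. The calling was tested on simulated reads. Software was matplotlib 3.10.9, scipy 1.17.1, pandas 2.3.3, numpy 2.4.6 and Python 3.11.15.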

Additional observations from a re-analysis of the deposited data

How the results depend on the processing

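No paired analysis was possible because each group holds 1 library. The genes called higher and lower, 826 and 4840, became 1326 and 2196 with TMM scaling, 1384 and 2100 with median-of-ratios scaling and 540 and 1932 with a 3-fold rule. The median log2 fold change of all compared genes, -0.51, became -0.012 with TMM, 0.015 with median-of-ratios and -0.31 when totals left out the 100 highest genes. Both scalings add a constant to every log2 fold change, so all 826 genes called higher had to stay called. For the same reason the lower calls, 2196 and 2100, could only be part of the 4840. This overlap is therefore no check of the calls. The share of calls that were higher, 14.6%, became 37.6% and 39.7%. Nuclear totals, leaving the 100 highest genes out of totals, 10 reads as the minimum, no minimum, a pseudocount of 0.5 RPM and all entries kept both counts within 1.5 times, at 765 to 1144 higher and 3557 to 5739 lower. Of the 294 named results, 261 kept their call under TMM, 29 lost it and 4 gained one. No named call changed direction under any alternative run. Shifts of 0.50 and 0.53 cannot reverse a call of 2-fold or more, so these 2 scalings could not have shown such a change. No alternative can stand in for the missing replicate, and genes under about 1 RPM rest on few reads.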

Other observations

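Some gene groups were not described above. Each is given beside the 25% of all compared genes called lower and the 4.26% called higher. Under TMM the all-gene counts were 2196 lower and 1326 higher of 19387. Trehalose synthesis genes, whose sugar is known as a stress signal, had 2 of 10 compared called lower (20%) and none higher. Of 55 class III peroxidases, enzymes of the cell wall, 24 were called lower (43.6%) and none higher (9 lower and 1 higher under TMM), and of 64 lipid-transfer proteins 22 were lower (34.4%) and 1 higher, with 9 and 1 under TMM. Of 55 lectin receptor kinases 21 were lower (38.2%) and 3 higher (9 and 4 under TMM). Of 37 genes of MAP kinase cascades 9 were lower (24.3%, near the background) and none higher; MPK3, a kinase of stress and immune signalling, stood at 382 RPM at 38 °C against 299 RPM at 20 °C and was not called. Of 52 protein phosphatases 2C 14 were lower (26.9%) and 2 higher (3.85%), both near the background, with AT3G62260 at 164 RPM at 38 °C against 29.4 RPM at 20 °C.

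Of 12 clock genes 1 was higher, PRR7, and 2 were lower; PRR5, its relative, stood at 4.19 RPM at 38 °C against 12.7 RPM at 20 °C. Within GSTF8 the entries differed in size: 1 entry stood at 43.4 RPM at 38 °C against 1.04 RPM at 20 °C (log2 5.35), and the others had log2 fold changes of 1.80 and 2.08.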
